A study of Mus musculus with 12 samples.

Results

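The cytosines described here are those followed by T, C, C and A in the mRNA, so that the cytosine and its 4 downstream bases read CTCCA in DNA letters (CUCCA in the RNA). They were taken from RNA bisulfite sequencing (RNA BS-seq) of mouse neural stem cells (NSCs), and a cytosine was kept when it lay in an annotated gene on chromosome 1 to 19 or X, carried no variant base, and was covered by 20 or more reads in each replicate of MF and pMF. A total of 1736 CTCCA cytosines in 1163 genes met this rule, out of 212737 cytosines (0.816%) in 5747 genes under the same coverage rule. The other 211001 cytosines of that set serve as the comparison for levels, shares and contexts. Tests at single cytosines ran over every genic cytosine covered 20 or more times in the libraries compared, so outside pMF against MF and the fits over both fractions together they include cytosines beyond that set, and the share among the others within it is then given too. The rule used sequence and coverage, and no methylation level. A position without any unconverted read is absent from the lists, however, so each of the 1736 had at least 1 methylated read in the 4 libraries that the rule names. CTCCA was found at 44507 genic cytosines listed in at least 1 library.

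NSCs came from the subventricular zone of male C57BL/6 WT mice aged 6 to 8wk and were grown as a monolayer with EGF and bFGF. They were cultured for 4 days in 1.5 µM (LF), 10 µM (MF) or 80 µM (HF) folic acid, and poly(A) RNA was taken either from whole cells (LF, MF, HF) or from the pooled polysome fractions of a sucrose gradient (pLF, pMF, pHF). Each of the 6 conditions had 2 replicates, called biological in the methods, which gave 12 libraries, and the number of mice behind a culture is not given in the sources used here. MF served as the control of LF and HF, and total mRNA as the control of polysome mRNA.

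In RNA BS-seq, 5-methylcytosine (m5C) resists bisulfite and is still read as C, whereas an unmethylated cytosine is deaminated and appears as T. The methylation level is the share of reads at a position that stayed C. Several enzymes place m5C in RNA. NSUN2 acts on many tRNAs and on mRNA cytosines followed by a G-rich stretch. NSUN6 methylates the acceptor end of a few tRNAs, and in mRNA it is known for a CUCCA element that is often found in the loop of a hairpin. The context alone does not name the enzyme at a site, and no cells lacking an m5C writer were among the libraries.

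A cytosine was said to pass in a condition when each replicate had 20 or more reads there, 6 or more of them methylated, and a level of 10% or higher. Of the 1736 CTCCA cytosines, 12 passed in at least 1 of the 6 conditions and 1724 passed in none. The sequences of 11 of the 12 are shown because the levels and tests of named cytosines below are mostly theirs. Each is 21 bases of the transcribed strand, 5′ to 3′, as DNA letters, with the methylated cytosine and its 4 downstream bases (CTCCA) in capitals. The positions are on GRCm38 (mm10), and all 1736 contexts of the lists were identical to that assembly.
Csnk2a1, chr2:152280160-152280180, + strand: gagccactatCTCCAgtgaac
Thbs3, chr3:89217870-89217890, + strand: gccccgatccCTCCAgcagag
Sdc3, chr4:130824045-130824065, + strand: ggacacgtgtCTCCAaagtgc
Tenm3, chr8:48342404-48342424, - strand: acgggcaataCTCCAagggcc
Crtc1, chr8:70382658-70382678, - strand: gtggccataaCTCCAgaggcc
Adamts14, chr10:61200458-61200478, - strand: cacaggagatCTCCAgaactc
Col23a1, chr11:51582286-51582306, + strand: tgtccccttcCTCCAagggca
Kif3a, chr11:53598786-53598806, + strand: ggccacggacCTCCAagggga
Bag6, chr17:35142777-35142797, + strand: cggccaactcCTCCAcaggct
Foxp4, chr17:47878666-47878686, - strand: cttgctcaacCTCCAgaggca
Slc25a23, chr17:57045628-57045648, - strand: gcccgcaggtCTCCAtggtgg

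The 12th cytosine lies in Mbd1, whose sequence is not shown. Outside the CTCCA element the windows shared a G on the 3′ side: counting from the methylated cytosine as 0, the base at +7 was G in 9 of 12 (75%) against 29.7% of the 1724 CTCCA cytosines that did not pass, and the base at +8 was G in 8 of 12 (66.7%) against 26.3%. On the 5′ side, the base at -4 was A in 7 of 12 (58.3%) against 25%. Over the 9 that passed without HF and pHF the counts were 7, 6 and 5. These positions were chosen after their values were seen and were not tested. A GGGG run in the 6 bases upstream was found in 0 of the 12.

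Summed over all listed cytosines, coverage per library lay between 1250056192 and 3018859494. A few libraries stood apart. Cytosines with a variant base made up 1.18% and 1.32% of the lists labelled HF against 0.332% to 0.393% in LF and MF, and the coverage of genes in the HF libraries had a Spearman rho of 0.842 to 0.864 with LF and MF libraries, which among themselves gave 0.962 to 0.969 (8429 genes). In pHF replicate 2, 38353 cytosines had a level over 90%, against at most 3465 in any other library, and 2.28% of its list carried a variant base. The counts of passing cytosines, the contexts and the fit over all libraries are therefore also given without HF and pHF. Among defining markers, coverage per 1000000 of summed coverage was 343 to 2772 for Nes (Nestin) and 6067 to 12270 for Vim, while the 3 endothelial markers summed to at most 0.295 and the 4 microglial markers to at most 23.9. The 8 mesenchymal markers summed to 2088 to 2558 in LF and MF and to 4629 to 4826 in HF, and the 4 astrocyte markers to 400 to 527 and 703 to 723. The 6 oligodendrocyte lineage markers went the other way, with 2444 to 2634 in LF and MF and 1037 to 1088 in HF, as did the 7 neuron markers, with 161 to 186 and 118 to 128. The neuron sum was mostly Map2 in these libraries (149.9 to 170.5 in LF and MF, 76.9 and 102.5 in HF). Tubb3 was higher in HF instead, with 6.59 to 14.7 in LF and MF and 19.8 and 35.2 in HF, as was Stmn2. Col1a2, Aldoc and Cx3cr1 made up most of the mesenchymal, astrocyte and microglial sums. Over the polysome libraries the mesenchymal, astrocyte, oligodendrocyte lineage and neuron lists ranged from 1375 to 3233, 457 to 802, 1481 to 3337 and 23.5 to 60.1. The 12 neural stem cell markers summed to between 10090 and 14310 over all libraries, mostly through Vim, and single genes moved more. Fabp7 was at 892 to 920 in LF and MF and 156 and 172 in HF, and Slc1a3 and Nes were also lower in HF. Notch1 was higher in HF (2158 and 2309) than in LF and MF (1397 to 1615), as were Msi1, Hes5 and Pax6. Nes was at most 874 in polysome libraries. The part of these markers in the results was not tested. No list held a cytosine under the name of Sox2, which lies inside Sox2ot. As positions without a methylated read are absent from the lists, this marker coverage does not measure expression. In bulk libraries, fewer cells of a type and less RNA per cell cannot be told apart either.

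Most CTCCA cytosines were methylated in very few reads, as were the other cytosines, but their upper tail reached further. In MF replicate 1 the median level was 0.128% at CTCCA against 0.0962% at the others, and the 99th percentile was 4.41% against 1.63%. In pMF replicate 1 the medians were 0.218% and 0.139%, and the 99th percentiles 9.32% and 4.20%. The order was the same in both replicates of MF and pMF. A listed cytosine has at least 1 methylated read, so its lowest possible level rises as coverage falls, and median coverage was lower at CTCCA. The part of coverage in these medians was not tested. A level under 1% was seen at 93.1% and 93.2% of the CTCCA cytosines in MF and at 84.6% and 82.7% in pMF, so a cytosine with measurable methylation was the exception in this context in both fractions. The share with a level of at least 10% was 0.403% in both MF replicates against 0.137% and 0.139% of the others, and 0.979% and 0.864% in the pMF replicates against 0.253% and 0.261%.

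The CTCCA cytosines that passed in both replicates numbered 4 in LF, 5 in MF, 4 in HF, 7 in pLF, 7 in pMF and 8 in pHF, and none of them had another passing cytosine on the same strand within 25 bases. Among the others, 587 passed in at least 1 condition, and 322 of these (54.9%) had such a neighbour, or 247 of 404 (61.1%) without HF and pHF. Counting isolated cytosines only, 12 of 1736 CTCCA cytosines (0.691%) and 265 of the 211001 others (0.126%) passed in at least 1 condition. By condition, the share in MF was 0.288% (95% Wilson interval 0.123% to 0.673%) against 0.0213% (0.0159% to 0.0285%) of the others, and in pMF it was 0.403% (0.196% to 0.830%) against 0.0602% (0.0506% to 0.0716%). In HF the interval of the CTCCA share, 0.130% to 0.854%, lay closest to that of the others, 0.0924% to 0.127%. With passing neighbours counted too, the share of the others was 0.111% (0.0976% to 0.126%) in MF, 0.131% (0.113% to 0.150%) in LF and 0.165% (0.145% to 0.187%) in HF. These intervals overlapped those of the CTCCA shares, whereas those in the polysome conditions did not (0.132% to 0.165% in pMF). PCR reads without molecular identifiers are not independent molecules, and these intervals cover counting error only. Over the conditions other than HF and pHF, 9 CTCCA cytosines (0.518%) and 157 others (0.0744%) passed in isolation. Crtc1, Adamts14 and Kif3a were the cytosines that passed through pHF alone.

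**Figure D1:**
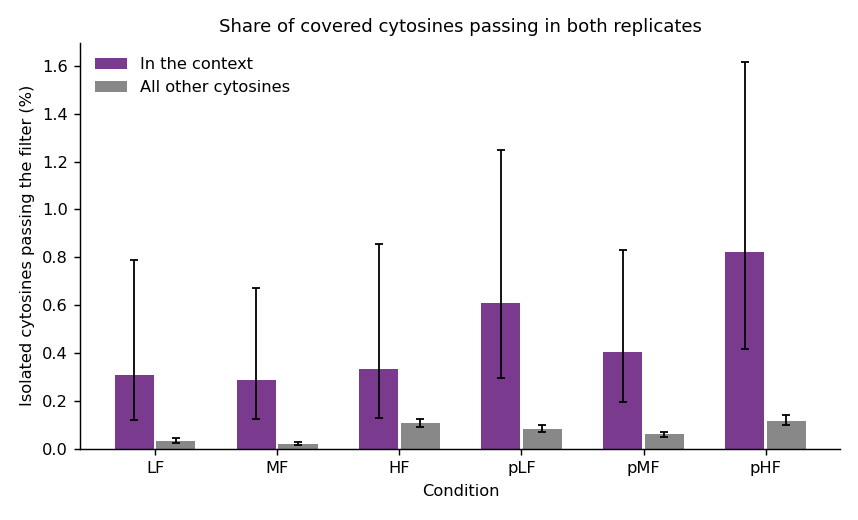
Share (%) of cytosines covered at least 20 times in a condition that passed the filter in both replicates with no passing neighbour within 25 bases, for CTCCA cytosines (purple) and all other cytosines (grey). Error bars are 95% Wilson intervals; the CTCCA bars run from 0.288% in MF to 0.823% in pHF, and the grey bars from 0.0213% to 0.117%.

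Coverage differed between the sets, with a median of 2253 at CTCCA and 2807 at the others in MF replicate 1 and of 1243.5 and 1825 in pMF replicate 1, so the shares were also taken within classes of coverage. At a coverage of 200 or more in both replicates, 5 of 1693 CTCCA cytosines (0.295%) and 28 of 207255 others (0.0135%) passed in isolation in MF, and 3 of 1522 (0.197%) and 58 of 193951 (0.0299%) did in pMF. At a coverage of 20 to 49 in pMF, 3 of 26 CTCCA cytosines (11.5%) and 19 of 2541 others (0.748%) passed in isolation, while at 50 or more and under 200 the shares were 0.532% and 0.345%. In MF, 0 of 5 CTCCA cytosines passed in isolation at 20 to 49 against 1.28% of the others, and 0 of 38 at 50 or more and under 200 against 0.358%. At a coverage of 20, 1 methylated read amounts to 5%. The 5 CTCCA cytosines just inside the coverage limit, with a lowest coverage of 20 to 24 in the 4 libraries of the rule, had a median level of 8.17% in MF, and the 3 just outside, with 15 to 19, had 1.24%.

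Next, the context was set beside all combinations of 4 downstream bases. TCCA ranked 8th by the share of isolated passing cytosines and shared the 3rd place by their number, with 12. AGGG held the most, 26 of 1392 (1.87%), followed by AGGA with 14, and the contexts with GGG at +2 to +4 together gave 48 of 4425 (1.09%). Without HF and pHF, TCCA was 9th by share and again shared the 3rd place by number. Changing 1 of the 4 bases left few isolated passing cytosines: 3 of 3350 (0.0896%) with another base at +1, 2 of 4231 (0.0473%) at +2, 2 of 1869 (0.107%) at +3 and 2 of 2733 (0.0732%) at +4. All 3 cytosines of the first group were followed by GCCA (3 of 625, 0.480%). These counts came almost wholly from HF and pHF. Without them 1 of 12183 cytosines with 1 changed base passed in isolation, followed by TCAA, and 0 of the 3350 with another base at +1 did, beside the 9 of 1736 at TCCA. With cytosines that had a passing neighbour counted too, TCCA ranked between 26th (pHF) and 47th (HF) by share in a condition. In MF, CCCA then held 6 of 1273 (0.471%), 0 of them isolated, against 5 of 1736 (0.288%) at TCCA. The contexts were not tested against each other.

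**Figure D2:**
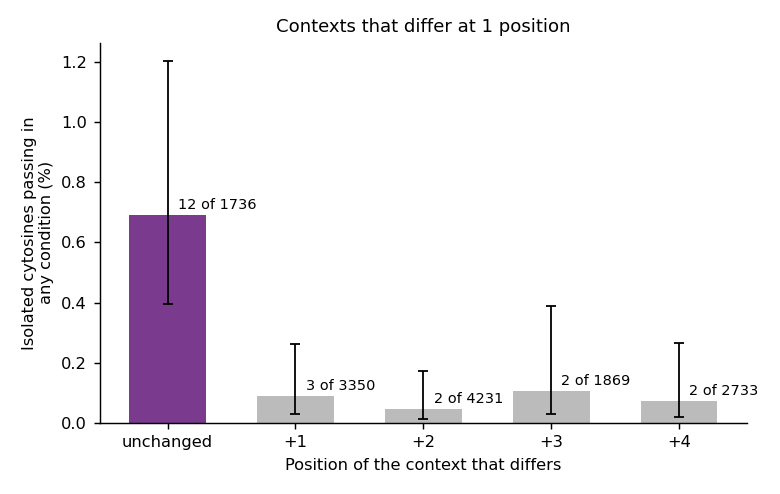
Share (%) of isolated cytosines passing in any condition, for the downstream context TCCA (purple, 12 of 1736) and for contexts that differ from it at the position shown on the x axis (grey), with 95% Wilson intervals. The grey bars run from 0.0473% to 0.107%, below the 0.691% of the unchanged context.

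The cytosines next to the 12 passing positions stayed low. The windows of 21 bases around the 12 passing cytosines held 80 other cytosines, of which 73 were listed in at least 1 library. None of the 80 reached 10% in any library, and the highest level was 5.23%, at +9 in Foxp4. Around the 9 that passed without HF and pHF, the highest level in the libraries of LF, MF, pLF and pMF was 3.57%. The cytosines at +2 and +3, inside the element itself, reached at most 3.57%, in Mbd1. The highest level of the 12 central cytosines lay between 13.8% and 57.6%.

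**Figure D3:**
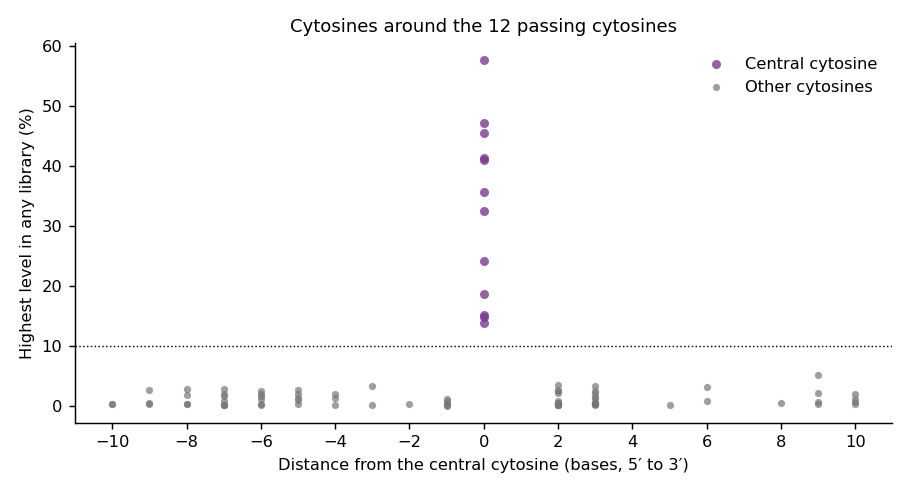
Highest methylation level (%) in any of the 12 libraries for each cytosine within 10 bases of the 12 passing CTCCA cytosines, by distance in bases from the central cytosine. Central cytosines (purple) reached 13.8% to 57.6%, and all other cytosines (grey) stayed at or under 5.23%, below the dotted line at 10%.

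The 12 passing cytosines are described by the role of the protein that their mRNA encodes. Levels are given over the 6 total and the 6 polysome libraries, with coverage between 19 and 1818 per library. For 5 of them the protein acts at the cell surface or in the extracellular matrix. Sdc3 encodes syndecan-3, a heparan sulfate proteoglycan of neural cell membranes, and held the highest levels. Its cytosine ranged from 36.7% to 43.4% in total mRNA (median 40.1%) and from 47.8% to 57.6% in polysome mRNA (median 52.8%). Every polysome library lay above every total library, and the means were 40.2% ± 2.49 and 52.4% ± 3.97 (SD, n = 6 each).

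Thbs3 encodes thrombospondin-3, a secreted matrix glycoprotein. Its level ranged from 13.5% to 27.0% in total mRNA (median 15.2%) and from 38.7% to 47.2% in polysome mRNA (median 44.4%). The fractions did not overlap, and the 2 highest total libraries were those labelled HF, at 27.0% and 23.1%. Tenm3 encodes teneurin-3, a transmembrane adhesion protein that guides neuronal partner choice. It ranged from 16.7% to 27.0% in total mRNA (median 23.0%) and from 21.1% to 45.5% in polysome mRNA (median 32.8%). The fractions overlapped through pLF replicate 1, which had 4 methylated reads of 19, and polysome coverage at this cytosine was at most 48.

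Adamts14, which encodes a protease that trims procollagen, showed 1.32% to 8.59% in total mRNA (median 4.21%) and 6.96% to 14.8% in polysome mRNA (median 11%). The 2 fractions overlapped through HF replicate 2, at 8.59%, and stood apart without HF and pHF. Col23a1, which encodes a transmembrane collagen, showed 9.41% to 16.3% in total mRNA (median 11.1%) and 5.88% to 41.0% in polysome mRNA (median 16.2%). It passed in MF alone, its fractions overlapped widely, and its highest value, 41.0% in pLF replicate 1, stood against 5.88% in pLF replicate 2.

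Another 3 encode nuclear regulators. Foxp4, a forkhead transcription factor, showed 2.56% to 6.30% in total mRNA (median 2.81%) and 2.91% to 18.8% in polysome mRNA (median 14%). Its lowest polysome values were the pHF libraries, at 7.32% and 2.91%, and without HF and pHF the fractions did not overlap. Crtc1, a coactivator of CREB, showed 0.800% to 9.56% in total mRNA (median 5.09%) and 6.76% to 15.1% in polysome mRNA (median 8.88%), with overlapping fractions. Mbd1, which encodes a protein that binds methylated CpG in DNA, showed 1.36% to 9.24% in total mRNA (median 5.15%) and 15.6% to 24.2% in polysome mRNA (median 17.1%), and here every polysome library lay above every total library.

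The remaining 4 encode a kinase, a chaperone, a motor and a carrier. Csnk2a1, the catalytic alpha subunit of casein kinase II, showed 1.99% to 11.4% in total mRNA (median 4.05%) and 20.2% to 32.5% in polysome mRNA (median 22.5%), without overlap. Bag6, a chaperone that guards newly made membrane proteins, showed 17.9% to 23.4% in total mRNA (median 19.6%) and 28.8% to 41.2% in polysome mRNA (median 35.7%), also without overlap. These 2 differed in how they passed, since Bag6 passed in all 6 conditions, as did Sdc3 and Thbs3, while Csnk2a1 passed in the polysome conditions only.

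Kif3a, a motor subunit of the kinesin that builds cilia, was the most uneven of the 12. Its cytosine ranged from 0.245% to 0.554% in total mRNA (median 0.434%) and from 4.61% to 13.8% in polysome mRNA (median 7.13%). The ratio of the means was 19.7, and coverage in total mRNA was 1342 to 1758. Slc25a23, a carrier of ATP in the mitochondrial membrane, showed 4.52% to 10.9% in total mRNA (median 7.08%) and 10.5% to 35.7% in polysome mRNA (median 16.9%), with an overlap of the lowest polysome library and the highest total library. The 35.7% was in pHF replicate 2, the library that stood apart (15 of 42 reads), and the other polysome libraries reached at most 22.4%.

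**Figure D4:**
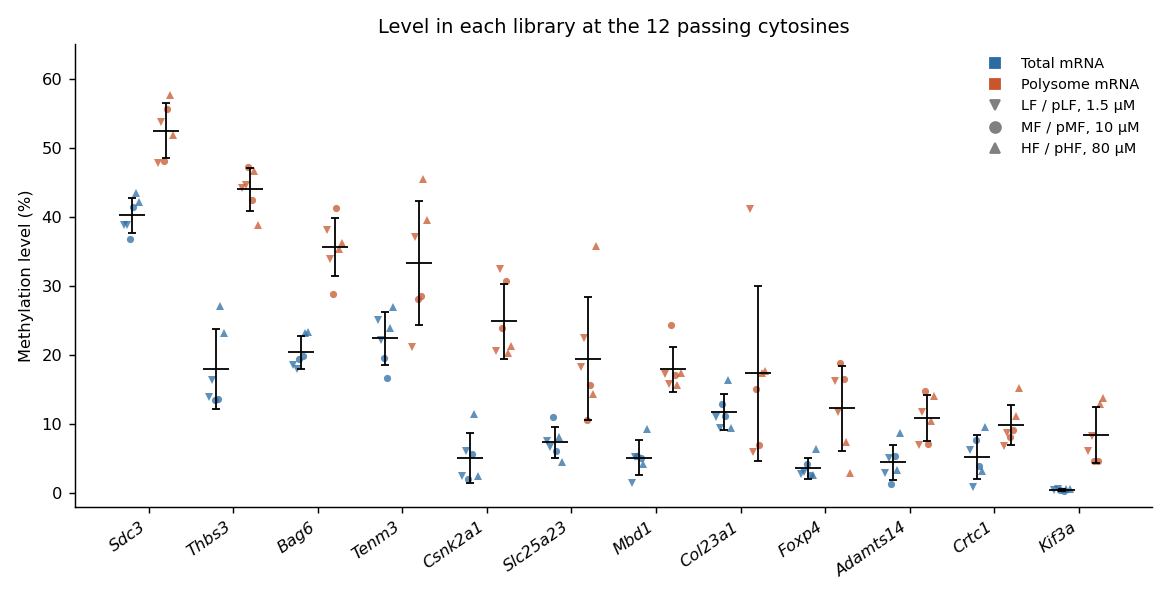
Methylation level (%) at the 12 passing CTCCA cytosines in each of the 6 total (blue) and 6 polysome (orange) libraries, with the folate condition by marker and the mean ± SD of 6 libraries as black bars. Genes are ordered by polysome mean, which lies above the total mean for all 12; the largest ratio is at Kif3a, from 0.425% to 8.36%.

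Over the 12 cytosines, the mean of the 6 polysome libraries was higher than the mean of the 6 total libraries at each, by a ratio of 1.31 to 19.7 (median 2.44), and the medians of the means were 6.25% and 18.7%. This count cannot be read on its own, because 7 of the 12 passed the filter in polysome mRNA only and so had to be high there. At the level of single cytosines, limma was fitted to the log2 odds of methylation in all 12 libraries with folate as a covariate. Tenm3 was left out by its coverage of 19 in pLF replicate 1. Of the 11 others tested, 9 were higher in polysome mRNA (Benjamini-Hochberg over 321 cytosines), against 38.6% of all cytosines tested. Since all 12 are isolated, the share among isolated cytosines, 52.3%, is the closer background. Of the 9 called, 6 (Csnk2a1, Adamts14, Kif3a, Foxp4, Slc25a23 and Mbd1) had passed in polysome mRNA only and so were chosen for being high there, which leaves Thbs3, Sdc3 and Bag6. The values of the 6 are descriptions. The difference ran from 0.72 ± 0.18 (SE) on the log2 odds scale at Sdc3 (adjusted p = 0.0104, limma) to 4.23 ± 0.22 at Kif3a (adjusted p = 1.03e-06, limma). The values that missed the threshold were 1.16 ± 0.47 at Crtc1 (adjusted p = 0.0627, limma) and 0.52 ± 0.51 at Col23a1 (adjusted p = 0.368, limma). Of the 11, 6 had every polysome library above every total library, against 19.9% of the 321 cytosines and 25.1% of the isolated ones, and 8 did without HF and pHF, against 38.0% and 51.8%. Csnk2a1, Mbd1 and Kif3a among the 6, and also Adamts14 and Foxp4 among the 8, had passed in polysome mRNA only, which favours this separation, so Thbs3, Sdc3 and Bag6 remain in both counts. limma without HF and pHF called 7 of the 8 CTCCA cytosines it could test, against 39.4% of 391 cytosines and 66.9% when isolated cytosines alone were tested. Of these 7, Csnk2a1, Foxp4, Slc25a23 and Mbd1 had passed in polysome mRNA only, which again leaves Thbs3, Sdc3 and Bag6.

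The fractions were also compared within each folate condition by a Fisher's exact test per cytosine, here on the reads pooled over replicates. In pMF against MF, 8 CTCCA cytosines were tested and 6 were higher in pMF (Fisher's exact test, two-sided), against 46.8% of the 370 cytosines tested. Among isolated cytosines alone the background was 70.5% of 139, close to the 6 of 8, so the count of calls does not set CTCCA apart. Thbs3 differed most, by 31.6 percentage points (adjusted p = 5.01e-51, Fisher's exact test), followed by Csnk2a1 with 23.6 points (adjusted p = 6.99e-11, Fisher's exact test). Pooling leaves out the spread between replicates, so a beta-binomial test with 1 shared overdispersion was run beside it, and it called the same 6 cytosines against 36.8% of all tested. No share among isolated cytosines, the closer background, was taken for this test or for limma here. Under that test the adjusted p was 1.46e-17 at Thbs3, 7.74e-08 at Csnk2a1, 1.29e-05 at Foxp4, 4.24e-05 at Bag6, 0.00221 at Mbd1 and 0.00229 at Sdc3. Tenm3, with a difference of 10.3 points, and Col23a1, with -1.79 points, were the 2 that did not pass. limma on these 4 libraries called 4 of the 8 (Csnk2a1, Thbs3, Foxp4 and Mbd1), against 26.8% of all tested, and lost Bag6 (adjusted p = 0.0845, limma) and Sdc3 (adjusted p = 0.127, limma). Csnk2a1, Foxp4 and Mbd1 entered this comparison through pMF alone.

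In pLF against LF, all 7 CTCCA cytosines tested were higher in pLF, against 51.1% of 374 cytosines by Fisher's exact test and 37.4% by the beta-binomial test, which called the same 7. Among the 318 others under the coverage rule the shares were 54.1% and 38.7%. Of the 7, 4 (Csnk2a1, Foxp4, Slc25a23 and Mbd1) had entered through pLF alone and so had to be high there, which leaves Thbs3, Sdc3 and Bag6. Among isolated cytosines 75.7% of 144 were higher by Fisher's exact test, and 77.3% of the 119 others under the rule. No share among isolated cytosines was taken for the beta-binomial test or for limma, here or in pHF against HF. limma called 6 of the 7, against 24.1%, and lost Sdc3 (adjusted p = 0.142, limma). Differences ran from 11.3 points at Foxp4, 1 of those 4, to 29.3 points at Thbs3. In pHF against HF, all 8 tested were higher in pHF, against 43.7% of 481 cytosines by Fisher's exact test and 40.7% by the beta-binomial test, with 7.09 points at Adamts14 and 16.7 points at Thbs3 as the ends of the range. Of the 8, Csnk2a1, Crtc1, Adamts14 and Kif3a had entered through pHF alone and so had to be high there, which leaves Thbs3, Sdc3, Tenm3 and Bag6, with 11 to 16.7 points. The call at Tenm3 was lost without pHF replicate 2, the library that stood apart, which left 10 methylated of 22 reads in pHF replicate 1. Among the 297 others under the coverage rule the shares were higher, at 60.9% and 56.2%. The background among isolated cytosines was 29.8% of 319 by Fisher's exact test, and 44.9% of the 185 others under the rule. That comparison also called 185 cytosines lower in pHF, 70 of them under the rule, of which 0 were CTCCA. Without the filter on level the direction was mixed, with 63 CTCCA cytosines called higher (8.22%) and 61 lower (7.96%) of 766, against 3.29% and 10.4% of all tested and 3.30% and 13.6% of the others under the rule. limma on these 4 libraries alone called 3 of the 8, Thbs3, Tenm3 and, among those chosen for being high in pHF, Kif3a, against 32.8% of all tested and 45.1% of the others under the rule. With a replicate block in the fit, Thbs3 and Tenm3 were lost. The CTCCA cytosines gave a median difference of 12.7 points in pHF against HF and 14.7 points in pMF against MF. In pHF against HF the median of the others depended on which were taken, with 1.35 points over all tested, 8.55 under the coverage rule, -10.8 over all isolated and 3.07 over the isolated ones under the rule. In pMF against MF it was 4.84 points over all and 7.95 over the isolated. The CTCCA medians are partly set by the filter, since 4 of the 8 in HF and 3 of the 8 in MF had passed in polysome mRNA only.

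To remove the advantage of cytosines that pass through polysome mRNA, the tests were repeated on cytosines that passed in the total condition, an alternative added after the data were seen. This choice has the opposite bias, since cytosines picked for a high level in total mRNA are favoured to be lower in polysome mRNA. In MF, 3 of 5 CTCCA cytosines (Thbs3, Sdc3 and Bag6) were higher in pMF, against 25.1% of 239 cytosines by Fisher's exact test and 15.1% by the beta-binomial test. In LF, 3 of 3 were higher in pLF, against 31.0% of 229 and 15.7%, or 34.5% and 16.8% of the 191 others under the coverage rule. In HF, 4 of 4, now with Tenm3, were higher in pHF, against 13.7% of 300 and 12.3%, or 25% and 21.4% of the 140 others under the rule. Tenm3 had 22 and 48 reads in the pHF replicates, and in the comparison above its call was lost without pHF replicate 2. The beta-binomial test called the same numbers of CTCCA cytosines in the 3 comparisons. The median difference at CTCCA was 12.3, 18.2 and 14.4 points in this order, and 0.689, 3.69 and -12.4 points at the other cytosines, of which those under the rule gave 0.689, 4.71 and -5.47. Among isolated cytosines that passed in total mRNA the background was higher in MF, with 48.0% of 50 by Fisher's exact test and 36.0% by the beta-binomial test, and in LF, with 49.1% of 55 and 43.6%. In HF it was 12.4% of 242 and 10.3%. Under the coverage rule the shares of isolated others were 51.1% and 44.7% of 47 in LF and 21.6% and 17.2% of 116 in HF. The same 3, 3 and 4 CTCCA cytosines were called. The medians at the isolated others were 7.83, 6.80 and -13.4 points, and 7.83, 7.32 and -5.21 under the rule.

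Without any filter on level, the shift was small at most CTCCA cytosines. The median difference between pMF and MF was 0.0870 points over the 1736 and 0.0467 points over the others. A rise of at least 2 points was seen at 82 (4.72%) against 2.14% of the others. The same share was 5.52% of 942 against 1.85% in pLF and LF, and 3.79% of 766 in pHF and HF, where 548 of the 87689 others rose as much. A fall of at least 2 points in pMF was seen at 4 CTCCA cytosines (0.230%) against 0.183% of the others, and in pHF at 11 of 766 (1.44%) against 0.976%. Most of the 1736 stayed under 1% in both fractions. At low coverage a single methylated read can make up a rise of 2 points. Median coverage in the pMF replicates was 1243.5 and 1159 at CTCCA against 1825 and 1768 at the others. Over all listed cytosines with a level under 5%, the pooled share of unconverted reads was 0.144% and 0.139% in MF and 0.183% and 0.191% in pMF. Positions without a methylated read are left out of this share, so it also depends on coverage and does not measure conversion. The share was also higher in pLF than in LF, but not throughout in pHF against HF. The part of coverage and of unconverted background reads in these shifts was not tested.

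Folate concentration was compared within each fraction. In LF against MF, 5 CTCCA cytosines were tested and 0 were called by Fisher's exact test, against 3.1% of 419 cytosines and 5.24% of the 248 others under the coverage rule. The closest was Tenm3, with 5.53 points (p = 0.00393, adjusted p = 0.0609, Fisher's exact test), the 1 cytosine with an unadjusted p under 0.05. The beta-binomial test and limma called 0 of the 5 as well, at a background of 0.0% for both. Sdc3, with the highest coverage of the 5, gave -0.313 points. In pLF against pMF, 0 of 7 were called and 0 had an unadjusted p under 0.05, against 8.87% of 496 cytosines by Fisher's exact test and 1.01% by the beta-binomial test, which also called 0 of the 7, as did limma against 1.21%. Among the 360 others under the rule these shares were 11.4%, 1.11% and 0.0%.

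In HF against MF, 4 of 5 CTCCA cytosines were higher in HF by Fisher's exact test, namely Thbs3 by 11.3 points, Tenm3 by 7.19, Sdc3 by 3.66 and Bag6 by 3.61. That comparison called 89.4% of 518 cytosines, so the count says nothing particular to the context. The beta-binomial test called Thbs3 and Tenm3, against 87.3%, and limma called Thbs3, against 82.8%. Among the 338 others under the rule the 3 tests called 89.3%, 86.7% and 81.1%. The median difference at the other cytosines, 12.4 points, or 9.24 under the rule, was larger than the 3.66 points at CTCCA. The HF libraries are those whose gene coverage and variant bases stood apart, and the part of that in these differences was not tested.

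In pHF against pMF, 2 of 10 CTCCA cytosines were called by Fisher's exact test, against 18.4% of 413 and 20.5% of the 342 others under the rule. Kif3a was higher in pHF by 8.72 points (adjusted p = 2.26e-09, Fisher's exact test), from 4.61% and 4.63% in the pMF replicates to 12.9% and 13.8% in those of pHF. It had entered the comparison through pHF alone. Foxp4 fell by 13.2 points (adjusted p = 0.000421, Fisher's exact test), from 18.8% and 16.5% to 7.32% and 2.91%, and it had entered through pMF alone. Each was thus chosen for being high in the condition where it was higher, and the values are descriptions. Without pHF replicate 2, the library that stood apart, the call at Foxp4 was lost (-10.3 points, adjusted p = 0.152, Fisher's exact test) and that at Kif3a was kept. The beta-binomial test called 0 of the 10, at a background of 0.0%, with 2 at an unadjusted p under 0.05. limma called 0 of the 10, at a background of 0.0%, with 3 at an unadjusted p under 0.05.

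Whether the difference between fractions itself changed with folate was tested by an interaction term in limma over the 12 libraries. Between LF and MF, 0 of 11 CTCCA cytosines were called and 0 had an unadjusted p under 0.05, at a background of 0.0% of 321. Between HF and MF, 2 of 11 were called, against 49.8%. The excess in polysome mRNA was smaller in HF at Thbs3, by -1.22 ± 0.40 (SE) on the log2 odds scale (adjusted p = 0.0277, limma), and at Foxp4, by -2.33 ± 0.77 (adjusted p = 0.0304, limma). Foxp4 had passed in pLF and pMF only and so was chosen for being high in pMF, which favours this direction, and its value is a description. At Csnk2a1, for example, the term for LF was -0.32 ± 1.08.

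The RNA around each CTCCA cytosine was folded at 37 °C with 25, 50 and 75 bases of the transcript on each side, since the element is known from hairpin loops. The cytosine lay in a predicted hairpin loop at 9, 7 and 9 of the 12 passing positions in these 3 windows, against 36.6%, 21.1% and 17.8% of those that did not pass (1 of 1736 could not be folded). The median probability that the cytosine was unpaired was 0.961, 0.857 and 0.869, against 0.650, 0.344 and 0.289. Sdc3, Tenm3, Crtc1, Adamts14, Slc25a23 and Mbd1 had the cytosine in a loop in all 3 windows, and Kif3a in none, where it was paired. Over the 9 that passed without HF and pHF, the cytosine lay in a loop at 7, 5 and 7. The loop held a median of 11 bases at passing and 8 at other positions. Passing windows also folded more stably, with median predicted energies of -17.3, -32.35 and -52.05 kcal/mol against -10.3, -25.9 and -42.6. The authors' filter on structure was not applied here, and the part of structure in conversion was not tested. These folds are predictions of isolated windows, and their agreement across windows differs by gene.

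**Figure D5:**
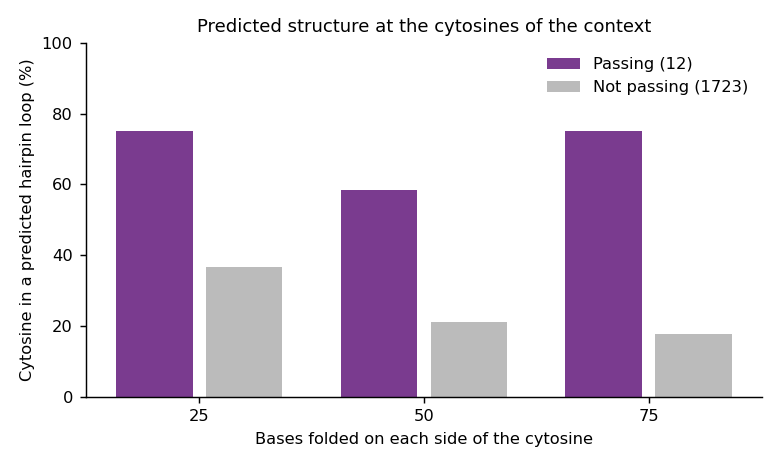
Share (%) of CTCCA cytosines that lie in a predicted hairpin loop when 25, 50 or 75 bases of the transcript on each side are folded, for the 12 passing cytosines (purple) and those that did not pass (grey). The purple bars are at 75%, 58.3% and 75%, and the grey bars fall from 36.6% to 17.8% with window length.

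By GENCODE vM21, 1233 of the 1736 CTCCA cytosines (71.0%) lay in coding sequence, 466 (26.8%) in 3′UTRs and 24 (1.38%) in 5′UTRs, close to the 72.9%, 23.7% and 2.01% of the other cytosines. Of the 12 that passed, 8 lay in coding sequence, 4 in 3′UTRs and 0 in 5′UTRs, and of the 9 that passed without HF and pHF 6, 3 and 0 did. The isolated others that passed divided into 52.8%, 39.2% and 4.53%, and into 51.6%, 36.3% and 7.01% without HF and pHF. The 3′UTR cytosines were those of Csnk2a1, Sdc3, Crtc1 and Col23a1, each in the last exon of the transcript. The coding cytosines lay in exon 3 of 23 in Thbs3, exon 9 of 29 in Tenm3, exon 21 of 22 in Adamts14, exon 17 of 18 in Kif3a, exon 12 of 25 in Bag6, exon 6 of 17 in Foxp4, exon 10 of 10 in Slc25a23 and exon 12 of 16 in Mbd1.

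A gene could hold several CTCCA cytosines, while 815 of the 1163 held 1. Lamc1 held 10, Myh9 held 9 and Fstl1, Lrig1, Mtss1l and Plxnb2 held 7 each, and no gene had more than 1 that passed. Of 18 genes for m5C writers, erasers and readers, 3 held a CTCCA cytosine under the rule, 0 of these passed, and the highest level was 0.245%, in Nsun2. Listed cytosines of Nsun6 summed to a coverage between 0 and 0.846 per 1000000 in the 12 libraries, and those of Nsun2 to between 76.4 and 400.5. As positions without a methylated read are absent, these sums do not measure expression.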

How the data were processed

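The authors used fastp for trimming, meRanGh for alignment to mm10, of which unique alignments were kept, and meRanCall of the same package for calling. The deposited list of each library gives read counts (coverage and methylated reads per position) and, as a fraction, the methylation level that the authors computed from them. The lowest coverage in these lists is 10 and the lowest number of methylated reads 1, so positions without a methylated read are absent, and they precede the authors' filters on reads with unconverted cytosines, signal and structure. Those filters were not applied here, and the call of isolated cytosines stands in for the first of them.

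From the counts, cytosines were tested by Fisher's exact test on pooled reads, by a beta-binomial likelihood ratio test with 1 overdispersion per comparison, and by limma 3.58.1 (R 4.3.3) on log2 odds with a pseudocount of 0.5. p-values were adjusted by Benjamini-Hochberg over all cytosines tested, at a threshold of 0.05. A cytosine was tested when it had a coverage of at least 20 in every library of the comparison and passed in at least 1 of its conditions. The interaction term, the restriction to cytosines passing in total mRNA, all or isolated, the counts without HF and pHF and the shares among others under the coverage rule were added after the data were seen. Members and lists were chosen with earlier results of these data known. Cytosines were named when they passed in both replicates of a condition without a passing neighbour. Levels, shares and Wilson intervals were computed with Python 3.11.15, pandas 2.3.3 and scipy 1.17.1, and RNA was folded with ViennaRNA 2.7.2 in transcripts of GENCODE vM21. Fisher's exact test, the beta-binomial test and limma were first tested on simulated data. The interaction term was tried on simulated data in the same step as its fit, and the fit with a replicate block was not. The level of 1 cytosine outside the coverage rule is not reported here. With 2 replicates per condition, the precision of any single condition is limited.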

Additional observations from a re-analysis of the deposited data

Results flagged for a closer look

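Of the 24 groups of 6 libraries at the 12 passing cytosines, 2 held a library far from the others. Chance gives about 1 in 20 groups if levels are normal with equal spread. Read depth and folate differed between the libraries of a group, so that rate is approximate, and counting error at few reads was not taken into account. At Mbd1, pMF replicate 1 had 24.2% (8 of 33 reads) against 15.6% to 17.3% in the other polysome libraries. At Col23a1, pLF replicate 1 had 41.0% (16 of 39 reads) against 5.88% to 17.6%.

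The difference between polysome and total mRNA was smaller in HF than in MF at Thbs3 (-1.22 on the log2 odds scale) and at Foxp4 (-2.33). At Thbs3 the total libraries of HF were high, and at Foxp4 the polysome libraries of pHF were low. Foxp4 had passed in pLF and pMF only, so it was chosen for being high there, and a lower value in pHF is favoured by that choice.

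A further 10 CTCCA cytosines did not meet the coverage rule in all 4 libraries of MF and pMF but passed in at least 1 condition, 8 of them in HF alone. The highest levels of 9 of them were 22.2% in Cit, 15% in Bst2, 18.4% in Gm47093,Tmem198b, 59.4% in Prpsap1, 100% in Gm26735, 14.3% in Fzd6, 18.9% in Igfbp6, 35.7% in Slit1 and 16.6% in Tbl1x. The 35.7% in Slit1 was in pHF replicate 2 at a coverage of 14, and in HF, where it passed, its levels were 11.4% and 11.5%. Gm26735 was at 100% in every HF and polysome library, at a coverage of 10 to 92, and was not listed in LF or MF. It passed in pLF and pMF, and Igfbp6 passed in HF, pLF, pMF and pHF. A GGGG run in the 6 bases upstream was present at 6 of these 10 and at 0 of the 12 described above.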

How the results depend on the processing

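Shares in this section are of the other cytosines under the coverage rule of the CTCCA cytosines, with p-values adjusted over all tested. Without a filter on level, Fisher's exact test called 194 of 1736 CTCCA cytosines (191 higher) in pMF against MF, or 11.2% against 8.31% of the others. It called 192 of 942 (188 higher, 20.4% against 13.0%) in pLF against LF, 124 of 766 (63 higher, 16.2% against 16.9%) in pHF against HF, 157 of 1200 (153 higher, 13.1% against 13.8%) in HF against MF, 3 of 1153 (1 higher, 0.26% against 0.124%) in pLF against pMF and 22 of 972 (7 higher, 2.26% against 2.81%) in pHF against pMF. limma over 12 libraries called 29 of 582 (25 higher, 4.98% against 3.05%). When only total mRNA had to pass, 3, 3 and 4 were called in MF, LF and HF, with all or with isolated cytosines, as fewer were tested. For pHF against HF limma called 3, and for HF against MF the beta-binomial test called 2 and limma 1. For pHF against pMF both called 0. In LF against MF 1 of 5 (Tenm3) was called at a coverage of at least 50, against 26 of 216 others, and 1 of 5 among isolated cytosines, against 7 of 56 others. With a level of at least 20% in place of 10%, the share of CTCCA cytosines passing in MF was 0.0576%. It was 0.154% in LF, 0.347% in pLF and 0.514% in pHF, each lower by over 1.5 times, while that in HF stayed at 0.333% and that in pMF was 0.288%. A coverage of at least 50 gave 0.176% in MF, 0.234% in pMF and 0.351% in pLF, also lower by over 1.5 times. These shares apart from that in MF at 20% lay within the Wilson interval of the share under the standard filter. The causes were not tested.

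Leaving out 1 library at a time, calls in pMF against MF numbered 6 to 11 (of 9 to 14 tested, with 37.3% to 46.6% of the others higher), in pLF against LF 7 to 11 (of 8 to 13, 39.4% to 58.1%), in pHF against HF 6 to 11 (of 8 to 12, 49.5% to 59.5%) and over 12 libraries 8 to 12 (of 11 to 15, 21.7% to 37.7%). They numbered 0 to 1 of 5 to 7 in LF against MF (0.351% to 12.7% of the others called), 3 to 8 of 6 to 10 in HF against MF (85.5% to 92.1%), 0 to 1 of 11 to 13 in pLF against pMF (7.74% to 17.8%) and 1 to 4 of 13 to 15 in pHF against pMF (10.7% to 22.8%). A cytosine then needs to pass in the remaining replicate alone, so at least as many are tested. The count moved by over 1.5 times without pMF replicate 1 (10) or 2 (11) in pMF against MF, pLF replicate 1 (11) in pLF against LF, HF replicate 2 (8) in HF against MF and pHF replicate 1 (4) or 2 (1) in pHF against pMF, and rose from 0 to 1 without LF replicate 2 in LF against MF and without pLF or pMF replicate 2 in pLF against pMF. At Col23a1 the difference between pMF and MF ran from -5.1 to 3.01 points and turned positive without pMF replicate 2.

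Replicate numbers were shared between conditions, but the correlation of their deviations was -0.105 to 0.0843, so pairing was not established. With the replicate block, limma called 4 of 8 in pMF against MF (14.9% of the others were higher), 6 of 7 in pLF against LF (27.0%), 2 of 8 in pHF against HF (42.8%), 1 of 5 in HF against MF (80.5% called), 0 of 10 in pHF against pMF (0.877% called) and 9 of 11 over 12 libraries (32.6%). The 2 in pHF against HF were Csnk2a1 and Kif3a, which had entered through pHF alone. Thbs3 (adjusted p = 0.0899, limma) and Tenm3 (adjusted p = 0.1, limma) were lost there.

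Positions without a methylated read are absent, so levels describe listed cytosines. Several polysome levels rest on few reads, as at Tenm3 (19 to 48), Col23a1 (20 to 51), Slc25a23 (28 to 76) and Mbd1 (32 to 75).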

Other observations

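Some CTCCA cytosines passed in none of the 6 conditions but were listed with low levels in all 12 libraries. They were picked after their values were seen and were not tested. Psph, which encodes the last enzyme of serine synthesis, held 2.11% to 4.6% in total mRNA (median 3.73%) and 5.42% to 8.38% in polysome mRNA (median 7.48%), at a coverage of 1421 to 17354, so its fractions did not overlap. Cux1, a homeodomain transcription factor, held 4.76% to 7.28% in total mRNA and 6.27% to 11.1% in polysome mRNA, with overlap. Lama5, a laminin chain of basement membranes, held 3.55% to 7.39% and 6.59% to 11.9%, also with overlap. In Tm9sf1, where the lists give Gm49378,Tm9sf1, the order was the other way, with 5.08% to 11.1% in total mRNA and 3.75% to 8.37% in polysome mRNA.

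In each condition, more CTCCA cytosines had a mean level of 5% or more without passing than passed. Their number was 7 in LF, 8 in MF, 36 in HF, 34 in pLF, 30 in pMF and 32 in pHF. Outside MF and pMF these means had no coverage limit and used only replicates that listed the cytosine. Some therefore rest on 1 library, as at Myh10 in pLF (10% at a coverage of 40 in replicate 2). A replicate without a methylated read drops out and raises the mean, so these counts are not like the passing counts.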
